A study of Sus scrofa domesticus with 2 samples.

Results

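The adhesion receptor genes VCAM1, ICAM1 and ICAM2 were examined, 3 of the 22804 genes counted, in endothelial cells (ECs) grown from pig aorta and pig lung. The genes were chosen by name. A cell was taken as endothelial where its UMIs of PECAM1, an EC surface protein, outnumbered its UMIs of the fibrillar collagen genes COL1A1 and COL1A2 together. By this rule 704 of 955 aorta cells and 5305 of 5709 lung cells within the limits on cells were endothelial. A UMI is a molecular tag that marks 1 captured transcript, so molecules were counted and not reads.

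Aorta_EC and Lung_EC were scRNA-seq libraries of primary cells of the domestic pig (Sus scrofa domesticus), 1 library per tissue. Cells were released with collagenase from the perfused lung or from the aorta close to it and were then cultured in serum-containing medium, with no treatment named. The number, age and sex of the animals behind these cultures and the passage are not given in the sources used here. With 1 library each, tissue, animal, culture and library cannot be told apart, no test between the tissues was possible and no p-value is given. All intervals are 95% intervals of counting error only, and cells were not treated as replicates.

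Leukocytes leave the blood by rolling on the vessel wall, stopping firmly and then passing between or through ECs. VCAM1 binds the integrin α4β1 and ICAM1 binds the β2 integrins LFA-1 and Mac-1, and both proteins are known to be raised on ECs by TNF and IL-1 through the transcription factor NF-κB. Interferon-γ is also known to raise ICAM1. ICAM2, another LFA-1 ligand, is held constitutively at EC junctions and is known to respond little to these cytokines.

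In Sscrofa11.1, VCAM1 (ENSSSCG00000006862) lies on the minus strand of chromosome 4 from 117496914 to 117511211 and has 8 annotated exons. ICAM1 (ENSSSCG00000013655) lies on the plus strand of chromosome 2 from 69097136 to 69107722 with 7 exons. ICAM2 (ENSSSCG00000039909) lies on the plus strand of chromosome 12 from 14986636 to 14991639 with 5 exons. The 250 bases before each RefSeq gene start are shown because the genes differ in the letters known from cytokine-responsive promoters. Capitals mark matches, on either strand, to the κB-type motifs GGGNNTNCC and GGAAATTCC, the STAT-type motif TTCNNNGAA, the interferon-type motif GAAANNGAA and the TATA box TATAAA. The windows are chr4:117511212-117511461 on the minus strand, chr2:69096886-69097135 on the plus strand and chr12:14986386-14986635 on the plus strand.
VCAM1: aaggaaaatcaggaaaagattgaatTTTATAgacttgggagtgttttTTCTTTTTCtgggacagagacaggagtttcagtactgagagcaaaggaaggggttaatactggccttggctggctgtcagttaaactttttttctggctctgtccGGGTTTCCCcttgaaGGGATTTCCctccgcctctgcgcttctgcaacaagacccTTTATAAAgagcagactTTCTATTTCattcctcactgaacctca
ICAM1: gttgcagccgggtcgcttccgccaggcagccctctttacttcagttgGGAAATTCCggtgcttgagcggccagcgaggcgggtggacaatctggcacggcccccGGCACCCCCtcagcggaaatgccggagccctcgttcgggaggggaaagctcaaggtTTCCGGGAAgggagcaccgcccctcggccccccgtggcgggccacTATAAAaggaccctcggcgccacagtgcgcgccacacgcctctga
ICAM2: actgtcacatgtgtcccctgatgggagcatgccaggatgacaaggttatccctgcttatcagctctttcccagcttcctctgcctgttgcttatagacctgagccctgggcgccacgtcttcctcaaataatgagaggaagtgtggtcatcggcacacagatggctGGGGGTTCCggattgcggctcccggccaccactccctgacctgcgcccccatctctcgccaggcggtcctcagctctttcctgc

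The VCAM1 window held a pair of κB-type matches in tandem, GGGTTTCCC starting 98 bases and GGGATTTCC starting 83 bases before the gene start, and a TATAAA 42 bases before it. It also held 2 interferon-type matches on the reverse strand and further TATAAA matches on the reverse strand, of which 1 overlapped the forward match. The ICAM1 window held GGAAATTCC at 203 bases, the STAT-type match TTCCGGGAA at 90 bases and TATAAA at 45 bases, and a reverse-strand match to GGGNNTNCC at 146 bases. The ICAM2 window held 1 match, GGGGGTTCC at 84 bases, and neither TATAAA nor the STAT-type or interferon-type letters. Of 19556 windows of the same length before protein-coding genes, 17.9% held GGGNNTNCC, 0.368% GGAAATTCC, 6.12% TTCNNNGAA, 6.70% GAAANNGAA and 9.77% TATAAA. A κB-type match together with TATAAA was present in 1.08% of the windows. The motifs were chosen with these sequences in view, and a match is a run of letters and not a measured binding site.

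The libraries differed in depth, with a median of 53209 UMIs per EC in the aorta and 9434 in the lung. Of 13 endothelial markers, 11 in the aorta and 10 in the lung reached 20 CPM (UMIs of a gene per 1000000 UMIs), while the EC markers KDR (0.390 and 1.78 CPM) and VWF (0.195 and 0.399 CPM) were almost absent from aorta and lung ECs. No marker of the immune, epithelial, lymphatic or mesothelial lists reached 20 CPM, with immune markers summing to 6.16 CPM in the aorta and 11.103 CPM in the lung. Fibroblast and mural markers summed to 440 CPM and 994 CPM, of which TAGLN, a smooth muscle gene, made up 240.3 and 956 CPM. COL3A1 was at 83.6 and 1.44 CPM and DCN at 18.5 and 0.0190 CPM. Among aorta ECs, 27 had under 1% of UMIs from mitochondrial genes, and in these barcodes VCAM1 was at 1011 CPM and ICAM1 at 11.2 CPM (1 UMI). After removal of the library suffix, 5 cell barcodes were shared by the libraries.

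VCAM1 was abundant in ECs of both tissues. Its level, from UMIs summed over ECs, was 3816 CPM (interval 3795 to 3836) in the aorta and 3207 CPM (3192 to 3223) in the lung. ICAM1 was at 154 CPM (149 to 158) in the aorta and 179 CPM (176 to 183) in the lung. ICAM2 was at 295 CPM (290 to 301) in the aorta and 338 CPM (333 to 343) in the lung. The level of each gene differed between the libraries by less than 1.5-fold, VCAM1 being 0.841 times as high in the lung as in the aorta, ICAM1 1.17 times and ICAM2 1.15 times. Thus 0 of the 3 genes lay past 2-fold, beside 1.3% of the 5915 genes at 20 CPM or more that were at least 2-fold higher in the lung and 3.08% at least 2-fold lower.

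The aorta value of VCAM1 depended on which cells were counted. The study's stated upper limit of 5000 detected genes leaves 123 of the 704 aorta ECs, and in these VCAM1 was at 2497 CPM, ICAM1 at 178 CPM and ICAM2 at 273 CPM. These 123 were the shallow cells of a deep library, with a median of 7864 UMIs against 57099 in the other 581 aorta ECs. Without thinning, a VCAM1 UMI was found in 87.8% of them and 99.8% of the others. Under this limit the lung held 1.29 times the aorta level of VCAM1 in place of 0.841 times, so no direction is read from this gene. In the lung the same limit left 5286 of 5305 ECs and VCAM1 at 3222 CPM.

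ECs and collagen-expressing cells of the same culture separated by VCAM1 and ICAM2 far more than by ICAM1. Collagen cells were those with at least as many COL1A1 and COL1A2 UMIs as PECAM1 UMIs, 188 in the aorta and 361 in the lung. In them VCAM1 was at 80.2 CPM in the aorta and 369 CPM in the lung, so ECs were 47.5 times (44.2 to 51.2) and 8.70 times (8.28 to 9.16) as high. ICAM2 was at 15.5 CPM and 60.3 CPM, with ECs 19.1 times (16.2 to 22.7) and 5.61 times (4.95 to 6.38) as high. ICAM1 was at 76.0 CPM and 119 CPM, with ECs only 2.02 times (1.87 to 2.19) and 1.503 times (1.37 to 1.65) as high. ICAM1 is known to be made by fibroblasts as well as by ECs.

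**Figure D1:**
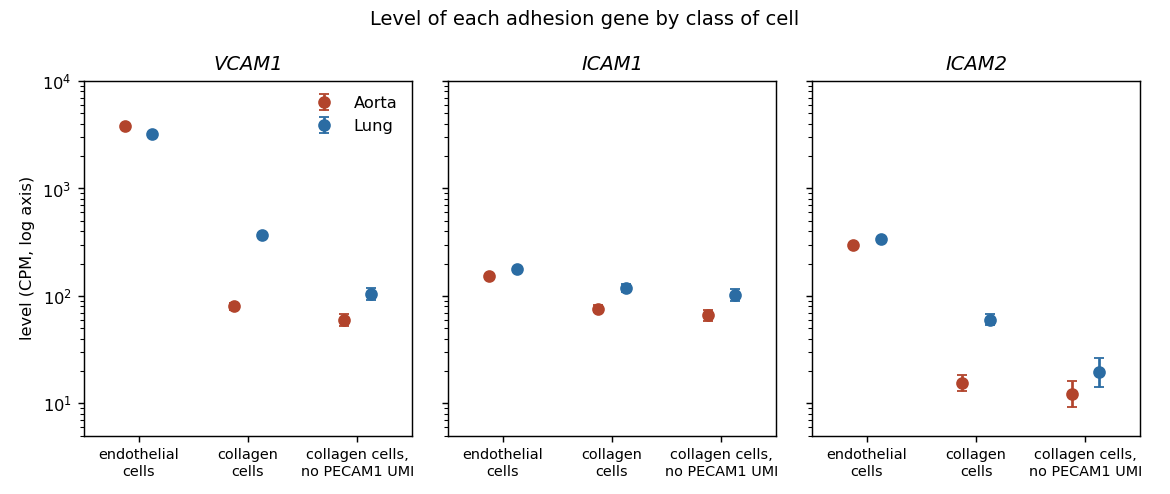
Level of VCAM1, ICAM1 and ICAM2 (CPM, log axis) in endothelial cells, collagen cells and collagen cells without a PECAM1 UMI of the aorta and lung libraries, where bars are 95% Poisson intervals. VCAM1 in the aorta falls from 3816 CPM in endothelial cells to 80.2 CPM in collagen cells, while ICAM1 goes from 154 to 76.0 CPM.

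The proportions of the genes also differed between the classes. Aorta ECs held 24.9 VCAM1 UMIs per ICAM1 UMI (24.2 to 25.5) and aorta collagen cells 1.06 (0.951 to 1.17). In the lung the ratio was 17.9 (17.5 to 18.3) in ECs and 3.09 (2.79 to 3.42) in collagen cells. VCAM1 UMIs per ICAM2 UMI shifted less, from 12.9 (12.7 to 13.2) in ECs to 5.19 (4.33 to 6.26) in collagen cells of the aorta and from 9.49 (9.34 to 9.64) to 6.11 (5.34 to 7.01) in the lung. Free RNA of ECs can add UMIs to collagen cells, and its part in these levels was not tested. Among collagen cells without any PECAM1 UMI, ICAM1 was still at 66.2 CPM in 114 aorta cells and 103 CPM in 225 lung cells, beside 60.0 CPM and 104 CPM for VCAM1 and 12.3 CPM and 19.5 CPM for ICAM2.

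Shares of cells were compared after each cell had been thinned at random to 5000 UMIs, which left 663 aorta and 4953 lung ECs and removed 41 and 352 shallower ones. A VCAM1 UMI was found in 98.3% of thinned aorta ECs (97.1 to 99.2) and 99.4% of lung ECs (99.1 to 99.6). ICAM1 was found in 53.2% (49.4 to 57.1) and 56.6% (55.2 to 57.9), and ICAM2 in 75.9% (72.4 to 79.1) and 80.4% (79.2 to 81.5). Near-universal detection thus held for VCAM1 alone at this depth. The lower shares of ICAM1 and ICAM2 were near those of even counts at their low levels. No ICAM1 UMI was found in 46.8% of aorta and 43.4% of lung ECs, where a Poisson count of the same mean leaves 43.6% and 40.9%. For ICAM2 it was 24.1% and 19.6%, beside 22.5% and 18.6%. Collagen cells are not taken as a background for VCAM1 or ICAM1. Those without a PECAM1 UMI held 0.907 VCAM1 UMIs per ICAM1 UMI (0.759 to 1.08) in the aorta and 1.01 (0.836 to 1.22) in the lung. In thinned collagen cells the shares were 24.5% and 44.3% for VCAM1, 29.0% and 41.6% for ICAM1, and 7.10% and 17.7% for ICAM2. In those without a PECAM1 UMI before thinning (85 aorta and 196 lung cells) they were 18.8% and 34.2% for VCAM1, 30.6% and 36.7% for ICAM1 and 2.35% and 10.2% for ICAM2. Median depths before thinning were 53673 UMIs per collagen cell in the aorta and 10670 in the lung. Without thinning the EC shares were 97.7% and 99.5% for VCAM1, 92.3% and 75.2% for ICAM1, and 96.0% and 92.4% for ICAM2. The lower unthinned share of ICAM1 in the lung went with the lower depth, and its CPM was higher there.

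The genes also differed in how the counts spread over cells. VCAM1 ranged from 0 to 65 UMIs per 5000 in aorta ECs, with a median of 17 and a span of 6 to 32 from the 10th to the 90th percentile. In lung ECs it ranged from 0 to 71, with a median of 15 and a span of 7 to 27. Its variance was 5.97 times the mean in the aorta and 4.20 times in the lung, where counting alone gives 1. ICAM2 was close to counting alone, with a variance of 1.08 times the mean in both tissues and 0 to 7 UMIs per cell in the aorta and 0 to 8 in the lung. ICAM1 was between these, at 1.24 and 1.19 times.

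Variance over mean grows with the level, so the spread beyond counting was also scaled by the squared mean. On this dispersion scale VCAM1 was at 0.266 in the aorta and 0.197 in the lung, and ICAM1 at 0.287 and 0.213, so the low-count gene was as uneven as the high-count gene. ICAM2 was at 0.0531 and 0.0495. Among genes with a thinned mean of at least 0.1, the median dispersion was 0.151 over 5666 genes in the aorta and 0.0881 over 5430 in the lung. VCAM1 held rank 2002 and 1396 from the highest, ICAM1 rank 1901 and 1292 and ICAM2 rank 3846 and 3500, so the inducible pair stood above the median and ICAM2 below it in each tissue. For the low-count genes 1 random thinning is itself noisy, and in the aorta ICAM1 moved from 0.287 to 0.150 and ICAM2 from 0.0531 to 0.137 when 3 cells under 1% mitochondrial UMIs were left out and the rest thinned anew. Averaged over all possible thinnings, the dispersion was 0.273 and 0.194 for VCAM1, 0.267 and 0.245 for ICAM1 and 0.0716 and 0.0438 for ICAM2 in aorta and lung, and it stayed at 0.268, 0.261 and 0.0678 in the aorta without those cells. That average was added after the data had been seen. In the 82 aorta ECs under 5000 genes it was 0.541, 0.262 and 0.124.

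**Figure D2:**
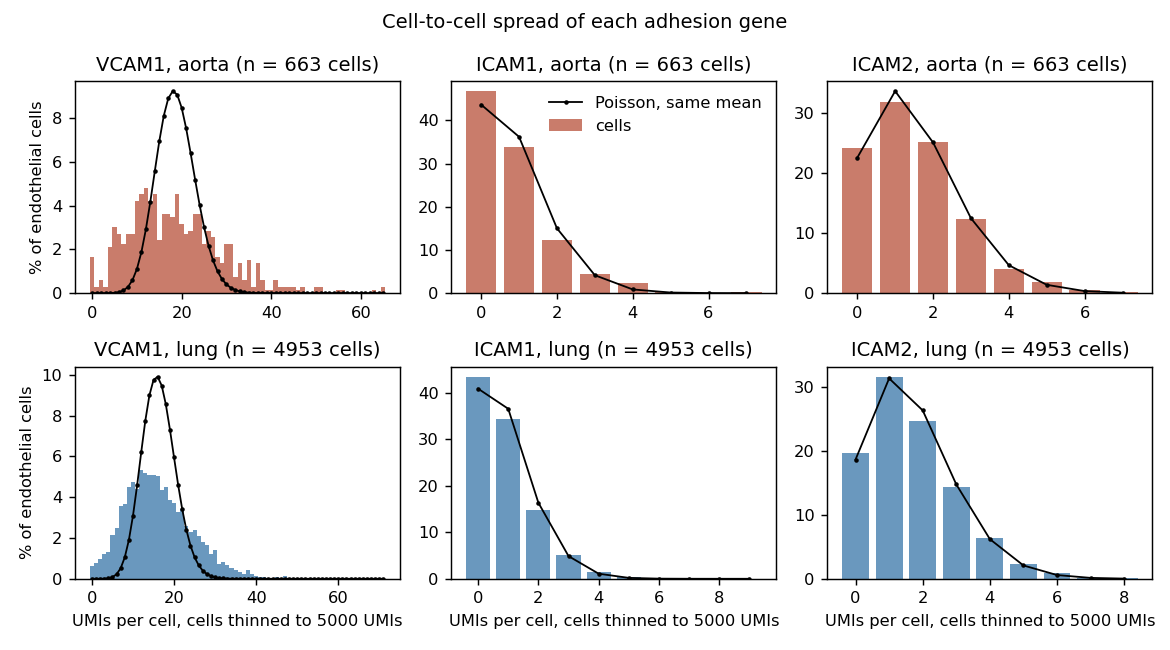
Share of endothelial cells (%) with each number of UMIs after thinning to 5000 UMIs per cell, for each gene in the aorta (663 cells) and the lung (4953 cells), with a Poisson distribution of the same mean as dots. VCAM1 is much broader than counting alone, from 0 to 65 UMIs in the aorta and 0 to 71 in the lung, whereas ICAM2 lies close to it.

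A few ECs held no VCAM1 UMI at this depth, 11 of 663 in the aorta and 31 of 4953 in the lung, where a Poisson count of the same mean would leave under 1. These cells were chosen for their VCAM1 count, so what follows is a description. PECAM1, by which all ECs were chosen, was at 4.36 UMIs per 5000 against 6.64 in the other aorta ECs and at 6.81 against 8.15 in the lung. The whole endothelial list was at 11.2 against 16.7 in the aorta and 12.3 against 16.8 in the lung, and CDH5, the junction cadherin, at 0.545 (0.200 to 1.19) against 1.08 and 0.484 (0.271 to 0.798) against 0.792. ICAM2 was at 0.636 against 1.51 and 1.06 against 1.68. The fibroblast and mural list went opposite ways, at 4.27 against 2.10 in the aorta and 2.23 against 4.89 in the lung. They held less of the monocyte chemokine CCL2, at 7.27 against 20.6 UMIs in the aorta and 1.16 against 7.23 in the lung. ICAM1 was not missing from them, at 1.18 against 0.824 UMIs in the aorta and 1.35 against 0.891 in the lung. Summed interferon-list UMIs also went opposite ways, with 43.0 against 22.0 in the aorta and 9.06 against 13.2 in the lung. In the lung the median mitochondrial share was 9.89% in these cells and 5.04% in the others. In the aorta the median depth before thinning was 25358 UMIs in these cells and 54648.5 in the others. Cells called G1 made up 72.7% against 44.6% in the aorta and 16.1% against 35.2% in the lung. The part of these differences in the result was not tested.

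Against the cell cycle, VCAM1 and ICAM1 were highest in cells called G1 in both tissues, and ICAM2 was nearly level. Phases were called from lists of S and G2M genes on the thinned counts, which put 299 aorta ECs in G1, 118 in S and 246 in G2M, and 1737, 1394 and 1822 lung ECs. VCAM1 averaged 20.1, 16.6 and 18.0 UMIs per 5000 in G1, S and G2M of the aorta. In the lung it averaged 18.1, 15.4 and 15.2. The spread over cells within a phase was far wider than these steps, with an SD of 11.7 in aorta G1 cells and 8.58 in lung G1 cells.

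For ICAM1 the averages were 0.963, 0.669 and 0.744 UMIs in the aorta and 1.02, 0.888 and 0.782 in the lung. For ICAM2 they were 1.46, 1.48 and 1.54 in the aorta and 1.65, 1.64 and 1.74 in the lung. G2M cells thus held 0.898 times (0.863 to 0.933) the G1 level of VCAM1 in the aorta and 0.841 times (0.827 to 0.854) in the lung. For ICAM1 the G2M to G1 ratio was 0.772 (0.638 to 0.933) and 0.769 (0.717 to 0.825), and for ICAM2 it was 1.05 (0.916 to 1.21) and 1.06 (1.00 to 1.11). The S to G1 ratio was 0.826 and 0.851 for VCAM1, 0.695 and 0.874 for ICAM1 and 1.02 and 0.997 for ICAM2.

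At this setting 0 of these ratios passed 1.5-fold either way. That fold was passed between G2M and G1 by 32.1% of the genes with a mean of at least 0.05 UMIs in the aorta and 12.8% in the lung, and between S and G1 by 37.6% and 11.2%. These shares include genes with far fewer UMIs than VCAM1, whose ratios carry more counting error, most of all in the smaller aorta groups. In the 128 aorta ECs with at least 3 PECAM1 UMIs and no collagen UMI, the ICAM1 ratio of G2M to G1 did pass it, at 0.524 (0.283 to 0.924). In the aorta, where groups were small, the ICAM1 ratio of S to G1 became 1.27 in the 82 thinned ECs under 5000 genes, and the VCAM1 ratio of G2M to G1 became 1.02 in those 128 ECs. Over cells, Spearman's rho with the summed S list was -0.106, -0.142 and 0.0448 for VCAM1, ICAM1 and ICAM2 in 663 aorta ECs. In 4953 lung ECs it was -0.128, -0.0400 and -0.00121. With the G2M list it was -0.0523, -0.123 and 0.0568 in the aorta and -0.130, -0.0885 and 0.0210 in the lung. Within cells called G2M, rho of VCAM1 with the G2M list was positive, at 0.132 in the aorta and 0.122 in the lung. It was 0.0118 and -0.0685 within G1 and -0.0447 and -0.104 within S. For aorta ICAM1, rho with the S and G2M lists was -0.141 and -0.158 at 10000 UMIs per cell and -0.190 and -0.201 without thinning. At 2500 UMIs it was -0.0590 and -0.0680, and in the 128 ECs without collagen UMIs -0.0263 and -0.107. In the 82 thinned ECs under 5000 genes it was 0.0620 and 0.0690. All of these are weak and share 1 library per tissue, so they are given as a description.

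**Figure D3:**
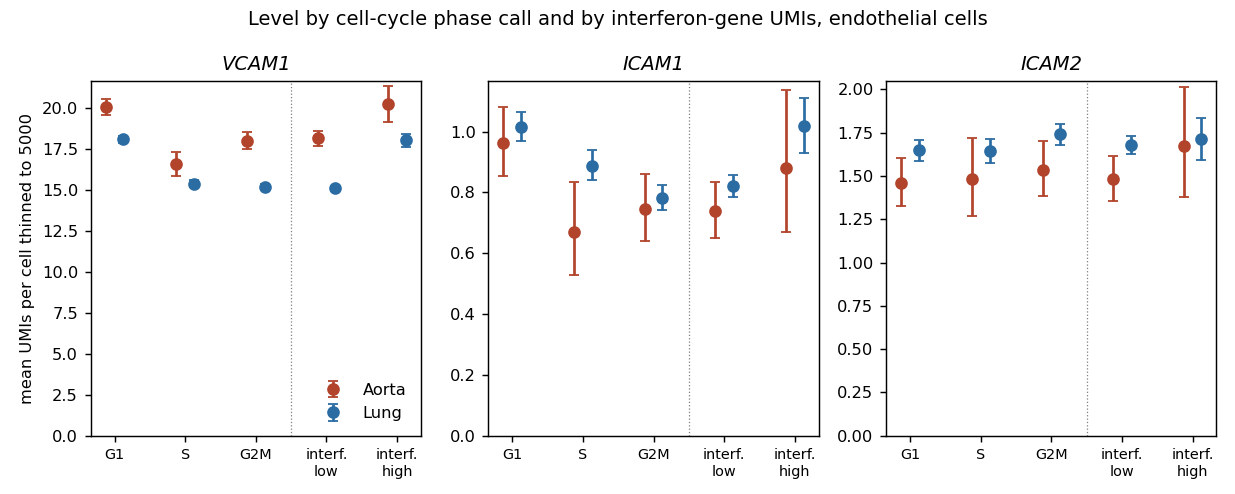
Mean UMIs per endothelial cell, after thinning to 5000 UMIs, of each gene by called phase and in interferon-low and interferon-high cells of the aorta and lung libraries, where bars are 95% Poisson intervals. VCAM1 averages 20.1 in aorta G1 cells and 16.6 in S cells, and 18.0 in interferon-high against 15.1 in interferon-low lung cells, while ICAM2 stays between 1.46 and 1.74 in every phase.

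In the lung, cells rich in interferon-stimulated transcripts held only slightly more VCAM1 and ICAM1. In the aorta VCAM1 did not rise steadily with these transcripts, and the interval of the ICAM1 ratio included no difference. The interferon list had 45 of its 52 genes in the counts, among them ISG15, a ubiquitin-like modifier at 875 CPM in aorta and 538 CPM in lung ECs, and IFI6, at 793 and 293 CPM. The list was far more unequal between cells than the adhesion genes, reaching 329 UMIs of 5000 in an aorta EC and 378 in a lung EC. The top 10% of cells by this sum (67 aorta cells above 47.6 UMIs, 474 lung cells above 27 UMIs) were set against the lower 50% (340 cells with at most 11 UMIs and 2485 cells with at most 7 UMIs).

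VCAM1 averaged 20.2 UMIs per 5000 in interferon-high against 18.1 in interferon-low cells of the aorta, a ratio of 1.11 (1.05 to 1.18). In the lung it averaged 18.0 against 15.1, a ratio of 1.19 (1.17 to 1.22). ICAM1 averaged 0.881 against 0.738 in the aorta, a ratio of 1.19 (0.883 to 1.59), and 1.02 against 0.821 in the lung, a ratio of 1.24 (1.12 to 1.37). These intervals hold counting error alone and not the spread over cells, so they are no test of a difference. The SD of VCAM1 over cells was 12.0 in interferon-high and 10.1 in interferon-low aorta ECs, and 8.08 and 7.78 in the lung. ICAM2 averaged 1.67 against 1.48 in the aorta and 1.71 against 1.68 in the lung, ratios of 1.13 (0.911 to 1.39) and 1.02 (0.944 to 1.10).

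At this depth 0 of 3 genes passed 1.5-fold, which 33.1% of genes in the aorta and 10.7% in the lung did. Here too the shares include low-count genes with more counting error than VCAM1, most of all in the aorta. For comparison, summed interferon UMIs themselves went from 5.81 to 105 in the aorta and from 4.51 to 58.4 in the lung between the same cells, as the choice of cells required. Interferon UMIs also moved with the phase, at 28.5, 17.9 and 17.1 in G1, S and G2M of the aorta and 17.1, 10.6 and 11.4 in the lung. Within G1 cells alone the ratio of interferon-high to interferon-low was 0.982 (0.904 to 1.06) for VCAM1 and 1.01 (0.670 to 1.49) for ICAM1 in the aorta. In lung G1 cells it was 1.13 (1.10 to 1.17) and 1.28 (1.11 to 1.47). The aorta difference of VCAM1 was therefore not seen within G1, and it also shrank to a ratio of 1.03 without the highest 5% of doublet scores. For aorta ICAM1 the ratio passed 1.5-fold at 10000 UMIs per cell, at 1.61 (1.32 to 1.95), and was 1.41 (1.06 to 1.87) without cells under 1% mitochondrial UMIs. The latter setting kept 660 of 663 thinned cells and thinned them anew, so the 1.41 also carries the noise of 1 random thinning. In the 82 thinned aorta ECs under 5000 genes the ratio for ICAM1 became 0.778 and that for ICAM2 1.66, and in the 128 aorta ECs without collagen UMIs that for ICAM2 became 0.726.

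The rank correlation (rho) with the summed interferon list was 0.0587, 0.0529 and -0.00738 for VCAM1, ICAM1 and ICAM2 in the aorta and 0.148, 0.0707 and -0.00650 in the lung. For ICAM1 the aorta value became 0.155 at 10000 UMIs per cell and 0.181 without thinning, but -0.0321 in ECs under 5000 genes. It became 0.127 without cells under 1% mitochondrial UMIs. That setting kept 660 of 663 thinned cells and thinned them anew, so the 0.127 also carries the noise of 1 random thinning. Within G1 the rho of VCAM1, ICAM1 and ICAM2 was -0.0661, -0.0157 and 0.0636 in the aorta and 0.127, 0.0928 and -0.0452 in the lung. VCAM1 reached 0.312 within the 118 aorta cells called S, beside 0.133 in lung S cells. In the same S cells ICAM1 was at 0.159 and 0.0708 and ICAM2 at -0.292 and 0.0392 in aorta and lung. With a shorter list of interferon-γ genes, such as those of the immunoproteasome and MHC class I loading, rho for VCAM1 was 0.197 in the aorta and 0.176 in the lung. Within G1 it was 0.138 and 0.153. Most abundant in this list was B2M, at 1562 and 1568 CPM, followed by PSMB9 at 120 and 164 CPM. B2M thus made up most of the sum, and its own rho with VCAM1 was 0.177 and 0.154. The median rho over the 7 list genes seen in at least 10% of ECs of both tissues was 0.0532 and 0.0532. A sum without B2M was not examined. Of the tested genes of this list, 8 of 9 in the aorta and 7 of 10 in the lung were at least 1.5-fold higher in interferon-high cells. All genes past that fold either way made up 33.1% and 10.7%. The list is thus not separate from the main interferon list. The same list gave 0.0578 and 0.0436 for ICAM1 and 0.0417 and 0.0567 for ICAM2.

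VCAM1 was also set against genes that NF-κB is known to control, among them chemokine genes. The rank correlation (rho) with the summed NF-κB response list was 0.255 in the aorta and 0.265 in the lung. Within phases it was 0.197, 0.324 and 0.238 in G1, S and G2M of the aorta and 0.207, 0.291 and 0.301 in the lung. CCL2, CXCL2 and CXCL8, which attract monocytes and neutrophils, were singled out after their values had been seen, as the members with a rho of 0.1 or more in both tissues, so leaving them out is a description. The remaining list gave 0.0794 in the aorta and 0.161 in the lung, and -0.0507, 0.132 and 0.156 in G1, S and G2M of the aorta. ICAM1 gave 0.102 and 0.0285 with the whole list, and ICAM2 gave 0.0383 and 0.0241.

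Gene by gene, 3 of 19 NF-κB genes seen in at least 10% of ECs of both tissues had a rho of 0.1 or more with VCAM1 in both, namely CCL2 (0.259 in aorta, 0.226 in lung), CXCL2 (0.278 and 0.197) and CXCL8 (0.133 and 0.156). Of 4962 such genes, 0.726% met this rule and 0.0605% had a rho of -0.1 or less in both. The rule was met by 2 of 24 interferon genes, the antiviral GTPase gene MX1 (0.115 and 0.115) and the tetherin gene BST2 (0.114 and 0.130), and by 1 of 7 interferon-γ genes, the MHC class I light chain gene B2M (0.177 and 0.154). In the lung, rho with VCAM1 was above 0 for 24 of 24 interferon genes and 19 of 19 NF-κB genes, beside 2255 of all 4962. In the aorta it was above 0 for 14 of 24 and 15 of 19, beside 2609 of 4962. The NF-κB inhibitor gene NFKBIA, itself a target of the pathway, had 0.0931 and 0.0679, and RELA, a subunit of the factor, 0.00269 and 0.0198.

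**Figure D4:**
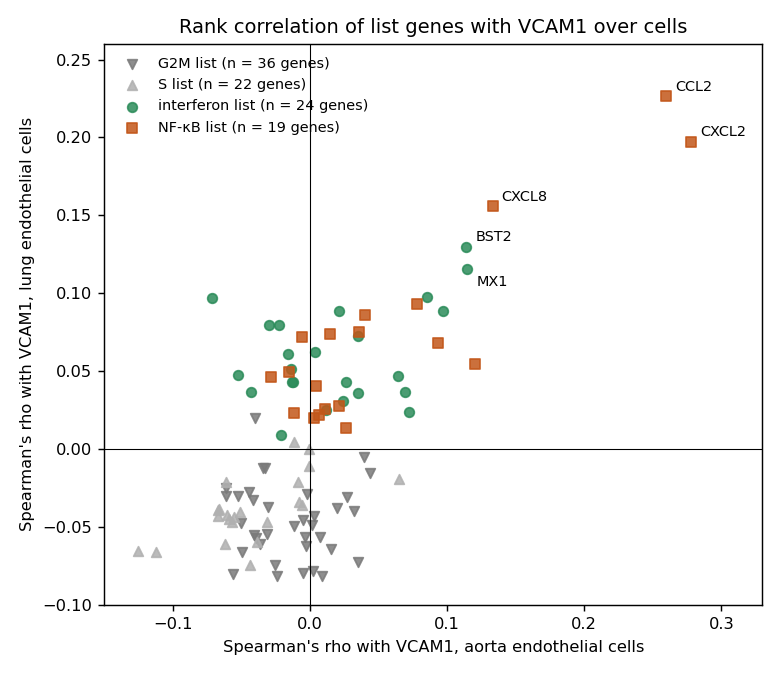
Spearman's rho with VCAM1 over aorta endothelial cells (horizontal axis) and lung endothelial cells (vertical axis) for the genes of the NF-κB, interferon, S and G2M lists, where each point is 1 gene seen in at least 10% of cells of both libraries. CCL2 and CXCL2 lie farthest to the upper right, at 0.259 and 0.226 and at 0.278 and 0.197, and the cell-cycle genes lie mostly below 0 in the lung.

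Among the genes most like VCAM1 across lung ECs were FAM213A (rho 0.230, and 0.365 in the aorta), CCL2, THBS1 (0.226 and 0.227), ANKRD1 (0.222 and 0.00895), SLC7A2 (0.200 and 0.134), CXCL2 and CTGF (0.191 and 0.175), with 1 further gene known here only by its identifier. THBS1 encodes thrombospondin and CTGF a matricellular growth factor. For ANKRD1 the rho was near 0 in the aorta, and the difference between the tissues was not tested. The lowest were H2AFZ (-0.116 and -0.0759), RPLP1 (-0.110 and -0.234), HMGA1 (-0.107 and -0.205), HSP90AB1 (-0.101 and -0.185) and RPL28 (-0.0997 and -0.202), which encode chromatin, ribosomal and chaperone proteins.

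No gene was closely alike to ICAM1 or ICAM2. The highest for ICAM1 in the lung were IGFBP7 (0.0960, and 0.102 in the aorta), CST3 (0.0879 and 0.0506), CSTB (0.0823 and 0.104), CALD1 (0.0789 and 0.0320) and TPM4 (0.0762 and 0.0674), followed by ISG12(A), ANGPTL4, ECM1 and TPT1. Its lowest were H2AFZ (-0.130 and -0.151), NPM1 (-0.105 and -0.127), HMGB1 (-0.0969 and -0.164), HSP90AB1 and PTMA (-0.0871 and -0.153). For ICAM2 all lung values lay between the -0.0632 of TAF3 and the 0.0778 of the actin gene ACTG1, with LMNA (0.0668), MESD (0.0587), CD63 (0.0553), AMCF-II, MDH2, B2M, NPM3 and GARS next to ACTG1 and PABPC1, UTRN and PAK2 next to TAF3. With a rho of 0.1 or more in both tissues there was 0% of genes for ICAM1 and 0% for ICAM2, and with -0.1 or less 0.0403% for ICAM1 and 0% for ICAM2. In counts as sparse as these, such values are no finding.

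The genes were only weakly related to one another on counts thinned to 5000 UMIs. The rank correlation (rho) between VCAM1 and ICAM1 was 0.104 in the aorta and 0.0674 in the lung, between VCAM1 and ICAM2 0.0344 and 0.0223, and between ICAM1 and ICAM2 0.0134 and 0.00945. In the deep aorta library these values changed between settings that altered the depth, the cells or the random thinning. Between VCAM1 and ICAM2 the aorta value became 0.170 at 10000 UMIs per cell, 0.193 without thinning and 0.185 in the ECs without collagen UMIs. Between VCAM1 and ICAM1 it became 0.161 without thinning and -0.0189 in the ECs without collagen UMIs. It became 0.0147 without cells under 1% mitochondrial UMIs. That setting kept 660 of 663 thinned cells and thinned them anew, so the value also carries the noise of 1 random thinning. Thinned cells with both ICAM1 and ICAM2 made up 40.3% of aorta and 45.2% of lung ECs. ICAM2 was found in 75.6% of aorta ECs with an ICAM1 UMI and 76.1% of those without, and in 79.9% and 80.9% in the lung, so detection of ICAM2 hardly differed between cells with and without an ICAM1 UMI at this depth.

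The integrin chains that leukocytes bring to these contacts were almost absent from ECs. The LFA-1 chain genes ITGAL (2.15 CPM in aorta and 3.02 CPM in lung) and ITGB2 (0.279 and 0.266 CPM) were near 0, and ITGA4, the α4 chain that binds VCAM1, was at 0 UMIs in the aorta and 0.114 CPM in the lung. ITGB1, the β1 chain that ECs use for matrix, was at 862 and 933 CPM. Of the rolling receptors, SELP, encoding P-selectin, was at 445 CPM in the aorta and 127 CPM in the lung, and SELE and ITGAM were not analysed here.

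Inside the cell, ICAM and VCAM1 tails are tied to actin by ezrin and moesin, whose genes EZR (279 and 231 CPM) and MSN (334 and 397 CPM) were present in both tissues. ADAM17, the sheddase that cuts VCAM1 and ICAM1 from the surface, was at 44.6 and 39.0 CPM. The receptors for the inducing cytokines were present at 56.2 and 52.7 CPM for TNFRSF1A and 80.3 and 64.8 CPM for IL1R1. Of the regulators, NFKBIA was at 294 and 285 CPM, RELA at 69.8 and 77.5, IRF1 at 20.3 and 25.6, GATA2 at 83.3 and 52.8, GATA6 at 49.1 and 34.2, KLF2 at 34.1 and 16.9 and KLF4 at 41.3 and 22.3 CPM in aorta and lung. KLF2 and KLF4 are flow-induced factors known to restrain VCAM1.

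The wider lists are read against the 1.3% of all 5915 genes that were at least 2-fold higher in the lung and the 3.08% at least 2-fold lower. At 2-fold, 0 of 19 firm-adhesion partners at 20 CPM or more differed between the tissues, with CD63 (1481 and 1679 CPM), RDX (641 and 589 CPM), CD81 (598 and 592 CPM) and FLNA (416 and 508 CPM) the most abundant, and a count of 0 is near those shares and no result about the list. Of 6 rolling genes, SELP and ST3GAL6 were lower in the lung and 0 higher, with CD34 at 187 and 99.4 CPM, and of 12 transmigration genes JAM2 (36.1 and 15.0 CPM) was lower. PECAM1 (1290 and 1592 CPM), RAC1 (989 and 984 CPM), CD99 (481 and 443 CPM) and RHOA (346 and 398 CPM) led that list. Of 21 NF-κB genes, 5 were lower in the lung, namely CCL2 (4169 and 1450 CPM), CXCL2 (2938 and 1047 CPM), CXCL8 (2978 and 650.2 CPM), IL6 (92.2 and 5.54 CPM) and PTGS2 (240.2 and 51.0 CPM), while IER3 (913 and 777 CPM) was within the fold.

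Against the same shares, of 11 cytokine receptors TLR4 (50.2 and 24.2 CPM) was lower in the lung, and IL6ST was the most abundant (805 and 539 CPM). Of 19 transcription regulators, KLF2 was lower and GATA3 (17.1 and 45.5 CPM) higher. ERG (150 and 127 CPM), ETS1 (141 and 124 CPM) and FOS (147 and 110.2 CPM) were among the most abundant of this list. Of 34 interferon genes, 11 were lower in the lung and 0 higher, IFI6 among the lower, beside the 3.08% of all genes. Median log2 ratios of lung to aorta were -0.14 for firm-adhesion partners, -0.65 for rolling genes, -0.05 for transmigration, -0.02 for the NF-κB list, -0.31 for cytokine receptors, -0.33 for regulators and -0.72 for interferon genes, beside -0.05 over all 5915 genes and 0.20 over VCAM1, ICAM1 and ICAM2.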

How the data were processed

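The authors deposited UMI counts per gene and cell, made per the labels with Cell Ranger 3.0.2 from single-cell 3′ libraries (v3 chemistry) on the Ensembl annotation of Sscrofa11.1, without normalization. Genes given only by an Ensembl identifier (7821) were named from a table where it held a symbol (1051). Cells were kept if over 200 genes were detected and 12 mitochondrial genes made up less than 30% of the UMIs. The study's upper limit of 5000 genes was used only as an alternative, because the study counted several times more aorta cells than it leaves. Levels were summed counts per 1000000 UMIs with exact Poisson intervals, shares had Clopper-Pearson intervals and ratios exact conditional intervals, all at 95%. In folds over all genes, levels under 3 counts were raised to that floor. Spread, rho, phases and interferon groups were computed on cells thinned to 5000 UMIs. Phases were called with scanpy 1.11.5 in Python 3.11.15 with numpy 2.4.6 and scipy 1.17.1. The caller Scrublet marked 0.942% of aorta and 0.0350% of lung cells. The latter was taken to mean that it had not worked, so no doublets were removed and the highest 5% of scores were left out as an alternative. The scripts were tested on simulated counts. Genes named besides VCAM1, ICAM1 and ICAM2 were the 4 most abundant of each list, fixed partners and regulators, the 10 highest and 5 lowest by rho, and genes past a fold or rho rule; some of these are not reported here. Members, lists and rules were chosen with earlier results of these data known. Promoter windows were read from the RefSeq assembly, which is also Sscrofa11.1.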

Additional observations from a re-analysis of the deposited data

How the results depend on the processing

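Over 363 recomputed values, 252 stayed within the interval of the value reported (or within 1.5 times it for dispersion), 103 moved and 8 turned direction. The causes were not tested, except that the 5000-gene limit leaves 82 and the strict EC rule (at least 3 PECAM1 and no COL1A1 or COL1A2 UMI) 128 thinned aorta cells. In the order VCAM1, ICAM1, ICAM2, the 5000-gene limit gave 2497, 178 and 273 CPM in the aorta, lung to aorta ratios of 1.29, 1.00 and 1.24 and aorta interferon-high to low ratios of 1.19, 0.778 and 1.66. It also gave aorta ratios of 0.677 (ICAM2, G2M to G1) and 1.27 (ICAM1, S to G1), ICAM1 rho of 0.0620 with S and 0.0690 with G2M genes, and lung VCAM1 ratios of 0.827 (G2M to G1) and 0.871 (S to G1).

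The strict EC rule gave 4058, 145 and 311 CPM in the aorta, 3237 CPM for VCAM1 in the lung, lung to aorta ratios of 0.798, 1.22 and 1.08 and an aorta rho between VCAM1 and ICAM1 of -0.0189. Its aorta G2M to G1 ratios were 1.02, 0.524 and 1.28 and S to G1 ratios 0.687, 1.01 and 1.30, with interferon ratios for ICAM2 of 0.726 in the aorta and 1.14 in the lung, and 0.879 for VCAM1 in lung S to G1. Thinning to 2500 UMIs gave G2M to G1 ratios of 0.826 (VCAM1) and 0.867 (ICAM2) in the aorta and 0.868 (VCAM1) and 0.981 (ICAM2) in the lung, and lung S to G1 ratios of 0.890, 0.793 and 0.936. Thinning to 10000 gave aorta interferon ratios of 1.05 (VCAM1) and 1.61 (ICAM1), lung G2M to G1 ratios of 0.947 (VCAM1) and 1.13 (ICAM2) and lung S to G1 of 0.877 (VCAM1). Without the highest 5% of doublet scores VCAM1 was at 3228 CPM in the lung, with ratios of 1.03 (aorta, interferon), 0.833 (aorta, G2M to G1) and 0.871 (lung, S to G1). Leaving out cells under 1% mitochondrial UMIs or with immune UMIs at or above PECAM1 moved none of these levels or ratios out of its interval. Across alternatives rho of VCAM1 with interferon genes was 0.0410 to 0.167 in the aorta and 0.113 to 0.188 in the lung, that of ICAM1 -0.0321 to 0.181 and 0.0479 to 0.106, and the dispersion of VCAM1 0.268 to 0.551 and 0.194 to 0.212. Dispersion in the aorta was 0.0114 to 0.538 for ICAM1 and -0.0406 to 0.173 for ICAM2, each from 1 random thinning. No paired analysis was possible because each tissue has 1 library.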
